A study of Rattus norvegicus with 88 samples.

Results

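miR-152 and miR-148b-3p (rno-miR-152 and rno-miR-148b-3p in the files) are 2 mature miRNAs of 1 seed family, and their levels were followed in the liver of untreated F344 (Fischer) rats from 2 to 104 weeks of age. They are 2 of the 677 miRNAs on the array, of which 363 were detected on no array and the others, called expressed below, on at least 1. The pair was chosen by name, with its levels on these same arrays already known: the rule asked whether the 2 paralogs change together over the 9 ages. Their levels, their sex differences and their ratio are therefore described here without a test.

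The data came from 88 one-colour (Cy3) Agilent rat miRNA arrays, each of which was hybridized with total RNA from a small piece of frozen liver of 1 animal, ground and homogenized. There were 45 females and 43 males of 9 ages: 2 weeks for the youngest, then 5, 6 and 8 weeks, next 15 and 21 weeks, and finally 52, 78 and 104 weeks. Each group of 1 sex and age held 5 livers, or 4 for the males at 5 weeks and at 104 weeks. The females were not staged for estrus, per the methods of the study. Groups follow the titles, source names and sex entries of the labels, whereas the growth protocol, which is 1 text for all 88 samples, names only females. The age of 2 weeks is called young, those from 5 to 21 weeks are called adult, and those from 52 weeks onward old. In homogenized tissue, fewer cells of a type and less RNA per cell cannot be told apart.

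A miRNA guides a silencing complex to messenger RNAs through its seed, the bases 2 to 8 from its 5′ end, so that miRNAs with the same seed can repress overlapping sets of targets. The miR-148/152 family is known for repressing the DNA methyltransferase Dnmt1, and family members are also known for repressing the cholesterol exporter Abca1 in liver. The mature sequences are shown because they define the family and because the few bases that differ are what a probe must tell apart. They are the RefSeq sequences on rat build GRCr8, written 5′ to 3′ with the seed in capitals.
miR-152-3p (chr10:82329435-82329455, plus strand): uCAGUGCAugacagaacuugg
miR-148b-3p (chr7:136299930-136299951, plus strand): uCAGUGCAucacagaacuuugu
miR-148a-3p (chr4:81664447-81664467, minus strand): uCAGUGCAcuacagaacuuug
These 3 are the only miRNAs of the RefSeq table used here with this seed. Counted from the 5′ end, miR-152-3p and miR-148b-3p differ at 2 of the 21 positions they share (G10C and G20U, with the base of miR-152-3p first), and miR-148b-3p is 1 base longer, with 22. The third member, miR-148a-3p, differs from miR-148b-3p at C9U and U10C and was not on the array, so that no level of it is given.

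On the same build, the gene Mir152 lies within the span of the protein-coding gene Copz2 (chr10:82328888-82341959, plus strand), and Mir148b lies within the span of Copz1 (chr7:136287696-136314131, plus strand). Copz1 and Copz2 encode the zeta subunits of the COPI coat of Golgi vesicles, so the miRNA paralogs sit in paralogous hosts. The table gives gene spans without exons, so exon or intron was not determined. Mir148a lies on chromosome 4 within no annotated gene.

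Both members were detected on 88 of 88 arrays. The other strand of each hairpin, miR-152* and miR-148b-5p, was detected on 0 of 88. No target spot was saturated. Each miRNA had 20 spots, 10 for each of 2 probe sequences in these members. The brighter probe of miR-152 stood above background in all 10 spots on 88 arrays with a median spot-to-spot coefficient of variation of 6.25%. Its second probe was dim, with no spot above background on 73 arrays, and added to the total signal on 16. The brighter and dimmer probes of miR-148b-3p varied by a median of 6.54% and 8.18% between spots. The total gene signals of the members ranged from 16.6 to 451 units. Values below are normalized intensities, the total gene signal divided by the 75th percentile of the expressed miRNAs on the same array, which ranged from 28.1 to 289. The number of animals limits the precision of every group value.

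The liver of 78-week male 6 stood apart from its group in miR-152. On the array of 78-week male 6, miR-152 was 1.87, against 0.720 to 0.809 on the arrays of the other 4 males of that age and 1.504 to 1.750 in the 5 females. The same array gave 63.2 for miR-29b, where the other males ranged from 32.1 to 43.6 and the females from 59.5 to 63.1, and miR-96 was undetected there, where the other males ranged from 1.04 to 1.54 and the females from 0.184 to 0.238. For miR-125b-5p it gave 19.2, within the 18.1 to 22.0 of the other males and above the 9.07 to 14.9 of the females, and for miR-99a 17.7, between the 10.69 to 15.7 of the females and the 21.6 to 24.6 of the other males. Its erythroid markers (miR-451 and miR-144) summed to 28.0, against 10.71 to 17.04 in the other males, and its biliary markers (miR-200a, miR-200b, miR-200c, miR-141 and miR-429) to 0.53, against 1.87 to 2.73. Its mesenchymal markers (miR-143, miR-145, miR-199a-3p, miR-199a-5p and miR-214) summed to 9.82, against 13.02 to 17.65. Its hepatocyte, leukocyte, endothelial and skeletal muscle sums lay within the ranges of the other males. The part of these markers in its miR-152 level was not tested. Results of the members at 78 weeks are given with and without this array, a choice made after seeing the data. Other arrays far from their groups, listed further below, were kept in the group values.

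miR-152 differed little between ages in females up to 8 weeks, had its highest female mean at 52 weeks and was lower again at 78 and 104 weeks. In males its lowest means were those of 15, 21 and 52 weeks. In females the mean normalized intensity was 1.14 ± 0.147 (SD, n = 5) at 2 weeks, 1.18 ± 0.0776 at 5 weeks, 1.08 ± 0.165 at 6 weeks and 1.24 ± 0.0748 at 8 weeks. It was 1.34 ± 0.233 at 15 weeks, 1.43 ± 0.198 at 21 weeks and 1.99 ± 0.121 at 52 weeks, then 1.64 ± 0.104 at 78 weeks and 1.44 ± 0.264 at 104 weeks. In the order of the female means, the gaps from 52 to 78 weeks and from 78 to 21 weeks exceeded the pooled SD of the neighbours on the log2 scale, and all other neighbours lay within it.

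In males the mean was 0.999 ± 0.141 (n = 5) at 2 weeks, 1.17 ± 0.190 (n = 4) at 5 weeks, 1.01 ± 0.137 (n = 5) at 6 weeks and 0.959 ± 0.0656 (n = 5) at 8 weeks. It was 0.659 ± 0.0430 at 15 weeks, 0.698 ± 0.0804 at 21 weeks and 0.687 ± 0.109 at 52 weeks. At 78 weeks it was 0.986 ± 0.497, or 0.764 ± 0.0450 (n = 4) without male 6, and at 104 weeks 0.983 ± 0.216 (n = 4). With male 6, no gap between neighbours in the order of the male means exceeded their pooled SD. Without it, the gaps from 8 to 78 weeks (0.33 on the log2 scale, against a pooled SD of 0.092) and from 78 to 21 weeks (0.14, against 0.13) did.

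**Figure D1:**
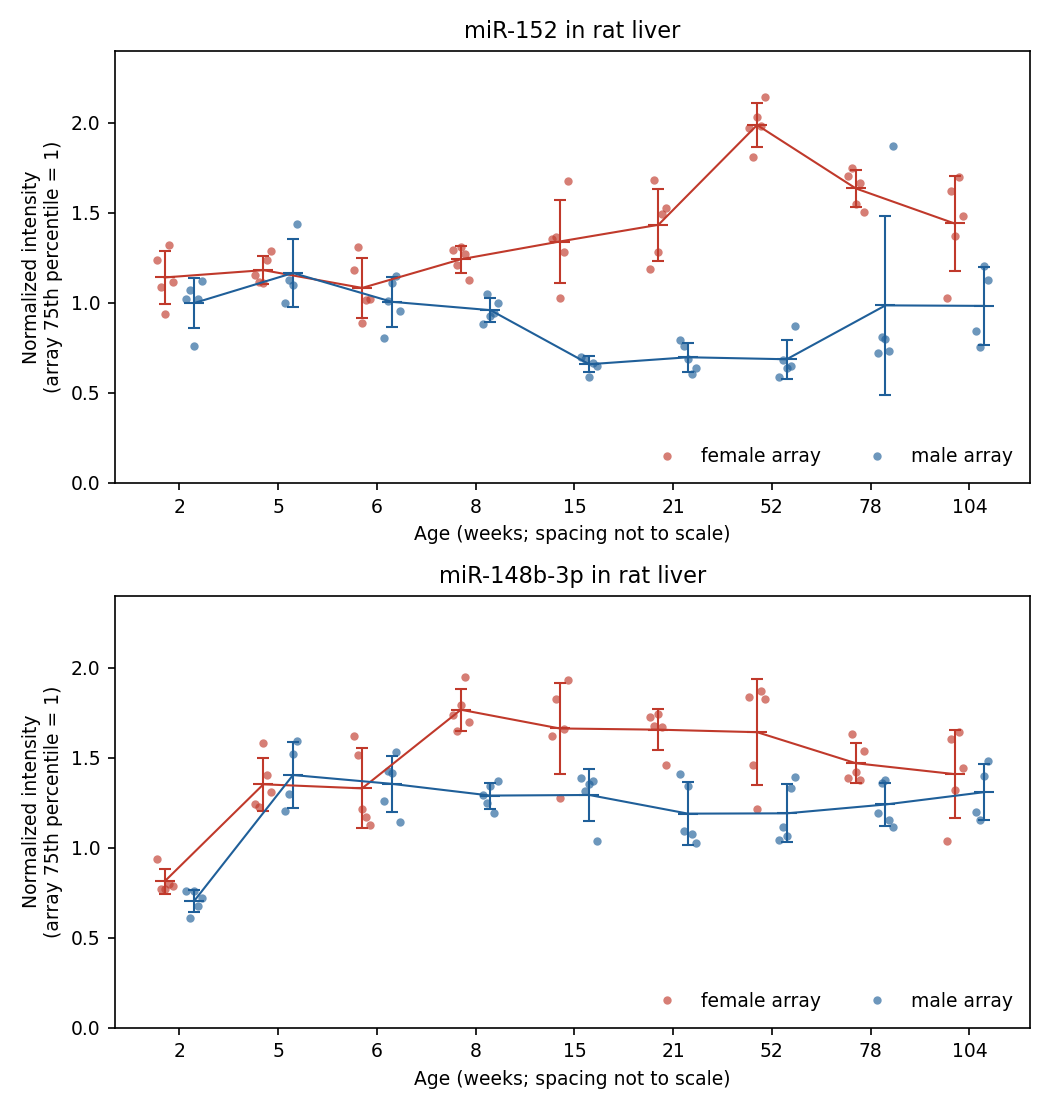
Normalized intensity (the 75th percentile of each array is 1) of miR-152, above, and miR-148b-3p, below, against age in weeks. Points are single arrays (1 liver each), lines and bars the mean ± SD of 4 or 5 arrays. For miR-152 the sexes do not overlap at 8, 15, 21 and 52 weeks, and 1 male of 78 weeks at 1.87 lies above the 5 females of that age. For miR-148b-3p both sexes start below 1 at 2 weeks, and the sexes do not overlap at 2, 8 and 21 weeks.

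At 15 weeks the 5 female livers gave 1.36, 1.36, 1.03, 1.28 and 1.68 for miR-152, and the 5 male livers 0.701, 0.688, 0.590, 0.664 and 0.652. At 21 weeks the females gave 1.19, 1.68, 1.28, 1.49 and 1.53, and the males 0.795, 0.763, 0.689, 0.605 and 0.638. At 52 weeks the females gave 1.97, 1.81, 2.03, 1.98 and 2.15, and the males 0.588, 0.681, 0.641, 0.651 and 0.873. At each of these 3 ages every female liver was above every male liver. The female mean was 2.01 times the male mean at 15 weeks, 2.05 times at 21 weeks and 2.92 times at 52 weeks, as the difference of mean log2 values. The log2 differences were 1.01 ± 0.15, 1.03 ± 0.15 and 1.54 ± 0.15, each with the SE from limma over all expressed miRNAs. They were 0.27, 0.70 and 0.61 when scaled to the 75th percentile over all 677 miRNAs, which fell on undetected signals on 36 arrays, and 0.37, 0.34 and 0.54 with normexp background correction.

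Up to 8 weeks the difference was smaller. It was 0.19 ± 0.15 at 2 weeks, 0.03 ± 0.16 at 5 weeks and 0.10 ± 0.15 at 6 weeks on the log2 scale, with overlapping sexes. Scaled by the 75th percentile or the mean log2 of the 103 miRNAs detected on every array, it was -0.20 and -0.16 at 2 weeks. At 8 weeks it was 0.37 ± 0.15, and the 5 females (1.13 to 1.31) lay above the 5 males (0.880 to 1.05). At 78 weeks it was 0.84 ± 0.15 with male 6 and 1.10 without it, and without it the sexes did not overlap. The SE pools the spread over all groups, whereas the 78-week males had a log2 SD of 0.58 with male 6. At 104 weeks the females gave 1.03, 1.62, 1.37, 1.70 and 1.48 and the males 0.847, 0.755, 1.20 and 1.13. There the difference was 0.56 ± 0.16, and 4 of 5 females were above all 4 males.

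The place of the members among all expressed miRNAs is given as a description, since the pair was chosen with these values known. Of the expressed miRNAs, 62 (19.7%) were higher in females at 1 or more ages at an adjusted p under 0.05 and at least 1.5-fold, and 59 (18.8%) were higher in males at 1 or more ages. These counts were 20 and 130 with the percentile over all 677 miRNAs and 4 and 11 with normexp. Among miRNAs detected on at least 50% of arrays they were 54 and 16. Among the 103 miRNAs detected on every array, the female excess of miR-152 had rank 3 at 15 weeks, rank 1 at 21 weeks and rank 2 at 52 weeks, and that of miR-148b-3p had ranks 18, 10 and 11.

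miR-148b-3p differed from miR-152 in its time course. At the scaling used here it was lowest at 2 weeks in both sexes, and it differed between the sexes by less than miR-152 from 15 weeks onward. Scaled by the 75th percentile or the mean log2 of the 103 always-detected miRNAs, adult males differed from young ones by -0.23 and -0.0457. At 2 weeks the 5 females gave 0.938, 0.770, 0.771, 0.801 and 0.787 and the 5 males 0.758, 0.608, 0.757, 0.679 and 0.723, without overlap and with a log2 difference of 0.21 ± 0.11 (SE). This difference turned to -0.19 and -0.15 when arrays were scaled by the 75th percentile or the mean log2 of the 103 miRNAs detected on every array. At 5 weeks the females ranged from 1.23 to 1.58 and the males from 1.20 to 1.59. Every liver of either sex at 5 weeks was thus above every liver at 2 weeks. In females the 5 livers of 8 weeks (1.65 to 1.95) were in turn above those of 5 weeks.

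From 8 weeks the female means of miR-148b-3p were 1.77 ± 0.116 (SD, n = 5) at 8 weeks, 1.66 ± 0.252 at 15 weeks, 1.66 ± 0.113 at 21 weeks, 1.64 ± 0.293 at 52 weeks, 1.47 ± 0.110 at 78 weeks and 1.41 ± 0.244 at 104 weeks. The male means were 1.29 ± 0.0719, 1.29 ± 0.146, 1.19 ± 0.174, 1.19 ± 0.161, 1.24 ± 0.122 (n = 5 each) and 1.31 ± 0.156 (n = 4) at the same ages, with 1.27 ± 0.114 (n = 4) at 78 weeks without male 6. In each sex, only the gap between 2 weeks and the next lowest age exceeded the pooled SD of neighbours in the order of the means.

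At 8 weeks the 5 females gave 1.74, 1.65, 1.79, 1.95 and 1.70 for miR-148b-3p and the 5 males 1.29, 1.25, 1.34, 1.19 and 1.37, without overlap. At 21 weeks the females gave 1.73, 1.68, 1.74, 1.67 and 1.46 and the males 1.41, 1.09, 1.34, 1.08 and 1.03, again without overlap. At 15, 52 and 78 weeks 4 of 5 females were above all males. The log2 difference was 0.45 ± 0.11 at 8 weeks, 0.36 ± 0.11 at 15 weeks, 0.49 ± 0.11 at 21 weeks and 0.45 ± 0.11 at 52 weeks. It was 0.25 ± 0.11 at 78 weeks (0.21 without male 6) and 0.10 ± 0.12 at 104 weeks. At 5 and 6 weeks it was -0.05 ± 0.12 and -0.03 ± 0.11. The largest of these differences was 1.40-fold, at 21 weeks.

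**Figure D2:**
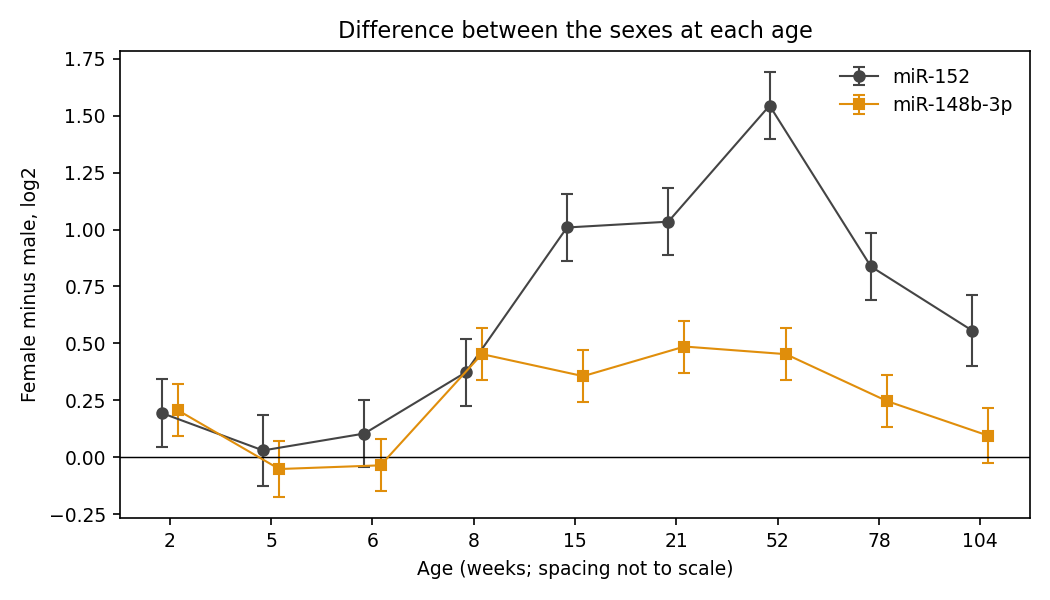
Female minus male mean of log2 normalized intensity at each age for miR-152 (circles) and miR-148b-3p (squares), with the SE from limma as bars (4 or 5 livers for each sex). Both are near 0 at 5 and 6 weeks and at 0.37 and 0.45 at 8 weeks, after which miR-152 reaches 1.54 at 52 weeks and miR-148b-3p stays at or below 0.49.

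The 2 miRNAs thus shared the direction of the sex difference from 8 weeks onward, and at 8 weeks they differed in its size by less than the SE. With the percentile over all 677 miRNAs both turned at 8 weeks (-1.02 and -0.94), and miR-148b-3p also at 15 weeks (-0.39), 52 weeks (-0.48) and 78 weeks (-0.21). From 15 weeks they differed in size. The ratio of miR-152 to miR-148b-3p on the same liver states this without any scaling between arrays, since both signals are divided by the same number. Its zero point depends on how strongly each probe binds, so a value of 0 does not mean equal amounts, and only differences between livers are read.

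At 2 weeks the mean log2 ratio was 0.48 ± 0.16 (SD) in females and 0.49 ± 0.31 in males. At 5 weeks it was -0.19 ± 0.19 and -0.27 ± 0.14, at 6 weeks -0.29 ± 0.15 and -0.43 ± 0.15, and at 8 weeks -0.51 ± 0.09 and -0.43 ± 0.13. The ratio was lower at 5, 6 and 8 weeks than at 2 weeks in both sexes, and the female minus male difference was between -0.08 and 0.14 at these 4 ages, with an SE of 0.15 or 0.16.

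From 15 weeks the ratio differed between the sexes. It was -0.31 ± 0.09 in females and -0.97 ± 0.19 in males at 15 weeks, -0.22 ± 0.27 and -0.76 ± 0.17 at 21 weeks, and 0.29 ± 0.27 and -0.80 ± 0.14 at 52 weeks. At 78 weeks it was 0.16 ± 0.14 in females and -0.44 ± 0.67 in males, where male 6 had 0.75 and the other 4 males -0.79 to -0.66. At 104 weeks it was 0.03 ± 0.03 in females and -0.43 ± 0.17 in males. The difference between the sexes was 0.65 ± 0.15 (SE), 0.55 ± 0.15, 1.09 ± 0.15, 0.59 ± 0.15 (0.89 without male 6) and 0.46 ± 0.16 at these ages. The SE comes from a spread pooled over all groups, so at 78 weeks it does not reflect the male SD of 0.67. With normexp each difference was smaller, as given under the processing below. Every female ratio was above every male ratio at 15, 52 and 104 weeks, and at 78 weeks without male 6. At 21 weeks 4 of 5 females were above all males.

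**Figure D3:**
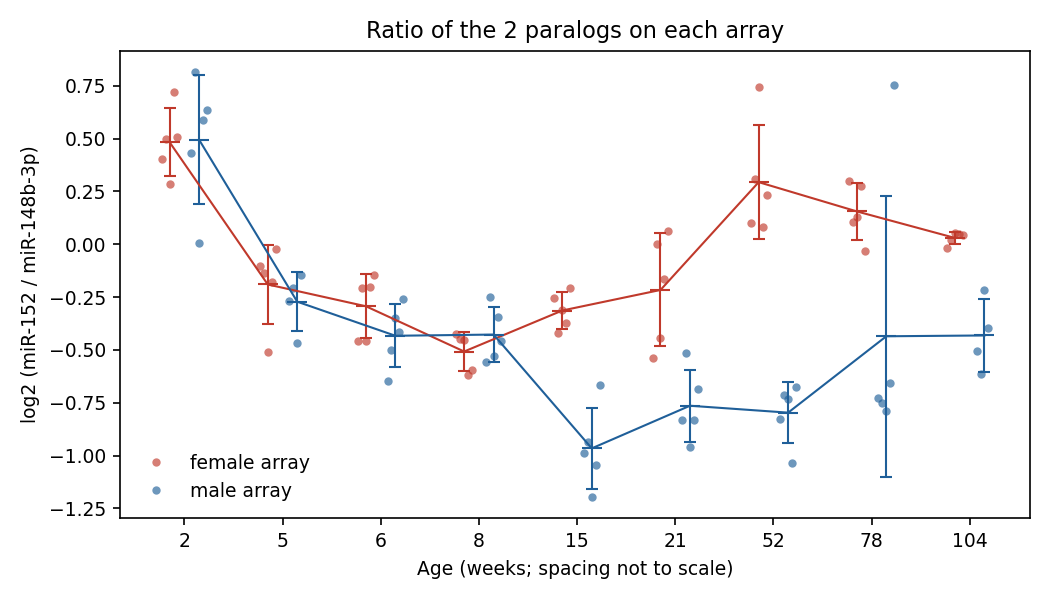
log2 of the ratio of miR-152 to miR-148b-3p on each array against age in weeks, with the mean ± SD of each group. The means start at 0.48 and 0.49 at 2 weeks, every later male array lies between -1.19 and -0.15 except male 6 of 78 weeks at 0.75, and the female means are higher from 15 weeks.

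Between age classes, the members moved differently. From adult (25 livers) to old (15 livers), miR-152 in females was higher by 0.42 ± 0.08 (SE) on the log2 scale, or 1.34-fold, and 8 of 15 old livers were above every adult liver. miR-148b-3p in females differed by -0.04 ± 0.07 between the same adult and old livers, or by -0.22 with the percentile over the 103. In males (24 adult and 14 old livers) the differences were -0.05 ± 0.12 for miR-152 (-0.13 without 78-week male 6) and -0.07 ± 0.06 for miR-148b-3p. The log2 ratio was higher by 0.46 ± 0.06 in old than in adult females and differed by 0.02 ± 0.13 in males (-0.08 without male 6). With normexp the female change of the ratio was smaller. None of these changes of single members reached 1.5-fold.

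From young to adult, miR-148b-3p was higher by 0.92 ± 0.11 in females (1.89-fold) and by 0.88 ± 0.08 in males (1.84-fold), and miR-152 differed by 0.13 ± 0.11 and -0.20 ± 0.18 (0.90 and 0.99 with the percentile over all 677 miRNAs). In this comparison 72 of the expressed miRNAs (22.9%) were called higher in females and 94 (29.9%) in males. These changes depended on the scaling, because the median change of the 103 miRNAs detected on every array was itself 0.52 in females and 0.99 in males. Relative to that median, miR-148b-3p was 0.40 higher in adult females and 0.11 lower in adult males (-0.11), and miR-152 was at -0.38 and -1.19. The ratio, which no division of a whole array by 1 number alters, was lower in adult livers by 0.79 in females and 1.08 in males (0.86 and 1.15 with quantile normalization, and 0.43 and 0.51 with normexp), with no overlap between the 5 young livers and the 25 or 24 adult ones. Levels at 2 weeks also carried a sex shift: the median female minus male difference of the 103 miRNAs was 0.36, and the members stood at -0.16 and -0.15 relative to it.

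Scan times in the files part the arrays into 5 scans of 1, 13, 30, 28 and 16 arrays, and the sexes were compared within each scan that held both at an age. Over 8, 15 and 21 weeks, the mean female minus male difference of miR-152 was 1.43, 0.82, 0.69 and 1.34 in scans 2 to 5, and over 52, 78 and 104 weeks it was 1.09, 0.97 and 1.05 in scans 3 to 5. For miR-148b-3p these values were 0.67, 0.40, 0.32 and 0.50, and then 0.22, 0.19 and 0.23. At these ages females were higher for both members in every scan that could be read, and the difference was larger for miR-152 in each. At the adult ages, scan 2 gave only 1 female against 2 males of 21 weeks, and scan 5 only 1 against 1 of 15 weeks. At the old ages, scan 4 gave no comparison at 52 weeks. The array of 78-week male 6 was in scan 2, which held no 78-week female, so these values do not include it.

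The 2 probes of miR-148b-3p gave like values when each was taken alone. At 8 weeks the female minus male log2 difference was 0.48 for the brighter and 0.41 for the dimmer probe, and at 52 weeks 0.43 and 0.49. The brighter probe of miR-152 alone gave 0.996 at 15 weeks, 1.02 at 21 weeks and 1.505 at 52 weeks. The level of miR-152 therefore rests on 1 probe sequence, and that of miR-148b-3p on 2.

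Whether the 2 varied together depended on what was compared. Over the 16 group means of 5 to 104 weeks, the log2 values had a Pearson r of 0.78 and a Spearman rho of 0.88. Of the 5253 pairs among the 103 miRNAs detected on every array, 6.36% had a higher r, and the median pair had 0.09. Over the 8 female means alone r was 0.36 (39.8% of pairs higher), and over the 8 male means 0.79 (8.93%). With the 2-week groups included r over 18 groups was 0.43, where the median pair had 0.45 and 51.5% of pairs were higher. All groups share the scaling of the arrays and the sex contrast, and the pair was chosen with its levels known, so these values are descriptions.

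Within groups, how far the 2 varied together depended on the livers and the scaling. The deviations of single livers from their group means had an r of 0.37 over 88 arrays (rho 0.46), where the median pair of the 103 miRNAs had 0.19 and 30.7% of pairs were higher. Without 78-week male 6 r was 0.51, and without the 2 livers farthest from the median deviation of miR-152 it was 0.46. In females r was 0.58 and in males 0.22 (0.44 without male 6). In scans 2 to 5 it was 0.16, 0.25, 0.70 and 0.55. When each array was scaled to the mean log2 of the miRNAs detected on all arrays, r was 0.17 (31.4% of pairs higher), with quantile normalization it was 0.20 (26.1%), and with the percentile over all 677 miRNAs 0.94 (21.2%, where the median pair had 0.89). The size of this correlation thus depended on how the arrays were scaled, and so did that of the median pair.

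**Figure D4:**
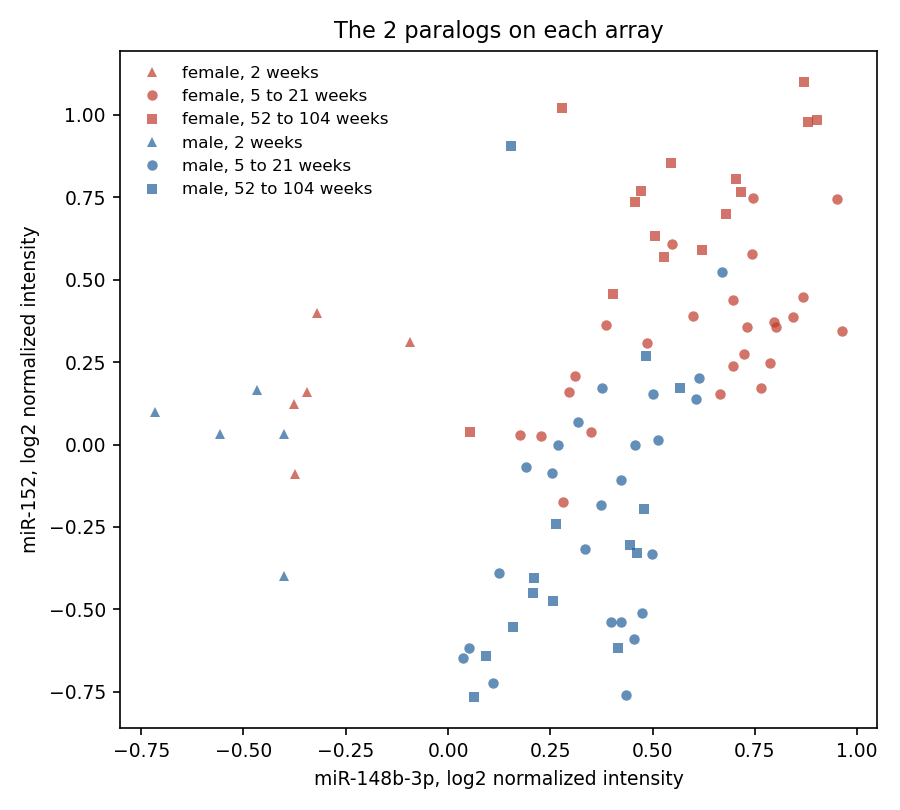
log2 normalized intensity of miR-152 against that of miR-148b-3p, 1 point for each of 88 livers, coloured by sex with age classes as symbols. Livers of 2 weeks lie to the left, with low miR-148b-3p. For miR-152, 8 of 15 old females lie above every adult female, 1 old male lies at 0.91, and the males of 15, 21 and 52 weeks lie below every female.

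Other miRNAs that share a seed were set beside the pair. Of the 103 miRNAs detected on every array, 89 had a RefSeq sequence, and 14 seeds were shared by 2 or more of them, which gave 63 pairs. Their r over the 16 group means ranged from -0.80 to 0.98 with a median of 0.50, and the pair described here (0.78) was at rank 47 from the lowest. The largest gap between the sex differences of 2 same-seed miRNAs at any age from 5 weeks had a median of 0.42 over the pairs. For miR-152 and miR-148b-3p it was 1.09, at 52 weeks, with 1 larger gap, 1.28 for miR-29b and miR-29c.

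The miRNAs whose 16 group means were most like those of miR-152 were miR-425 (r = 0.90), miR-107 (0.78), miR-148b-3p itself (0.78) and miR-352 (0.74), among 102 others. miR-425 had a female minus male log2 difference of 1.02 at 15 weeks, 0.71 at 21 weeks and 0.59 at 52 weeks. It did not share the higher level in old females, where it differed by 0.03 from adults. miR-107, which lies in a pantothenate kinase gene, had 0.55, 0.61 and 0.54 at the same 3 ages. For miR-148b-3p the closest were miR-23b (0.86), miR-652 (0.85), let-7d (0.82) and miR-28 (0.81), and miR-152 had rank 7. miR-23b had sex differences of 0.40 at 8 weeks, 0.24 at 15 weeks, 0.47 at 21 weeks and 0.44 at 52 weeks, close to those of miR-148b-3p.

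Other miRNAs reported to act on DNA methyltransferases or their regulators were read as a list of 9, all of them measured. The list was chosen with earlier results of these data known, so its calls and adjusted p-values are descriptions. Of the 9 miRNAs, 4 were higher in females at 1 or more ages and 0 higher in males, against the background of 19.7% and 18.8% of all miRNAs. The 4 became 3 with the percentile over the 103 miRNAs detected on every array or with equal means of these. They also became 3 with normexp or with slide as a random block. In these 4 settings, 47, 42, 4 and 57 of all expressed miRNAs were higher in females and 68, 65, 11 and 58 in males. With the percentile over all 677 the list had 0 higher in females and 5 in males, beside 20 and 130 of all expressed miRNAs. The 4 list miRNAs higher in females at the scaling used here were miR-29a, miR-29b, miR-29c, which target the de novo methyltransferases Dnmt3a and Dnmt3b, and miR-185. At 4 or more ages, 4 of the expressed miRNAs (1.27%) were higher in females. miR-29b was higher at 5 ages, by 0.62 ± 0.14 (SE) at 2 weeks, 0.75 ± 0.14 at 8 weeks, 1.02 ± 0.14 at 15 weeks, 0.88 ± 0.14 at 21 weeks and 1.30 ± 0.14 at 52 weeks, with a limma adjusted p of 8.1e-12 at 52 weeks. Its call at 2 weeks, where the median of the 103 miRNAs was itself 0.36, was lost under 4 other scalings and normexp, with differences of 0.23 to 0.59, and with scan as a block. With the percentile over all 677 miRNAs its difference turned at 8 weeks (-0.65) and was not called at 15, 21 and 52 weeks. At 52 weeks its normalized intensity was 76.1 ± 6.10 in 5 females and 31.1 ± 5.66 in 5 males, and at 104 weeks 58.0 ± 11.7 and 60.4 ± 1.74. miR-29a and miR-29c were higher in females at 2 weeks only, by 0.96 ± 0.13 and 0.83 ± 0.12, beside the same median of 0.36. With the percentile over the 103 miRNAs these were 0.57 and 0.44 and neither was called, as neither was with the percentile over all 677, and miR-29c was also not called with equal means (0.47). miR-185 was called at 15 weeks (limma adjusted p = 0.037), where it was undetected in 2 of 5 males, so its difference rests on the value put in for undetected signals. This call was lost with the percentile over all 677 miRNAs (1.99), normexp (0.096) and slide as a random block (1.83). The median sex difference of the list lay between -0.08 (at 104 weeks) and 0.40 (at 2 weeks) over the 9 ages. At 52 weeks it was 0.26, beside 0.04 over the 103 miRNAs detected on every array.

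From adult to old, 3 of the 9 rose in females (5 of all expressed miRNAs, 1.59%, rose and 9, 2.87%, fell), and 3 rose in males (12, 3.82%, rose and 4, 1.27%, fell). The 3 were miR-29a, miR-29b and miR-29c in both sexes. With quantile normalization and with normexp, miR-29b was the only one of these 3 still called in either sex, with the percentile over all 677 miRNAs the only one in males, and miR-29c was not called in females with the percentile over the 103. miR-29b rose by 1.47 ± 0.21 in females and 1.38 ± 0.15 in males, with limma adjusted p of 1.2e-06 and 3.6e-09. Since the list was chosen with earlier results known, these p-values are descriptions too. Beside these values, the log2 differences of miR-152 between old and adult livers were 0.42 in females and -0.05 in males.

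The labelled tissue was checked by its marker miRNAs. The hepatocyte markers miR-122, miR-192, miR-194 and miR-802 summed to a median of 653 in young females and 418 in young males, 1025 and 970 in adults and 1066 and 985 in old livers. The 5 mesenchymal markers had medians of 14.7 and 14.8 in adult females and males and 14.3 and 13.1 in old ones, the 2 endothelial markers 19.4 and 20.0, then 18.5 and 17.2. The leukocyte markers (4 of 5 on the array) had medians of 8.998 and 9.010 in adults and 10.65 and 12.78 in old livers. Over all adult ages the ranges of these lists overlapped between the sexes. The erythroid markers had adult medians of 6.81 in females and 11.13 in males, and they did not overlap at 8 weeks (4.17 to 8.00 in females and 8.16 to 17.7 in males) and at 15 weeks (5.27 to 7.35 and 7.82 to 19.3). The biliary markers had adult medians of 1.91 and 2.83 and did not overlap at 8 weeks (1.63 to 2.07 and 2.80 to 3.73). At 52 weeks, where the sex difference of miR-152 had its highest value, both lists overlapped, with 6.45 to 8.13 and 7.41 to 11.3 for the erythroid and 0.59 to 1.58 and 0.93 to 1.80 for the biliary markers. The leukocyte markers did not overlap at 78 weeks (9.74 to 10.9 in females and 11.3 to 15.0 in males), nor the hepatocyte markers at 2 weeks (560 to 675 and 399 to 429). The 4 skeletal muscle markers were undetected in the median adult male but summed to as much as 65.3 on 1 adult male array. The part of these lists in the members' levels was not tested.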

How the data were processed

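Liver miRNA was measured on 88 one-colour arrays, 1 animal for each. The authors deposited scanner output of Feature Extraction 10.7.3.1, in which total gene signals are linear intensity values after background subtraction and 0.1 marks an undetected miRNA. They also deposited a table of ratio values, the total gene signal over the 75th percentile of the expressed miRNAs of the array. For both members this table and the values used here were equal on all 88 arrays (differences under 0.0001 log2).

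Signals were read by probe name, since 17 arrays used later miRNA names. Detected signals were divided by the 75th percentile (rank 236 of the expressed miRNAs, with the lowest detected signal, 1.84, for undetected ones), undetected values were set to 0.0120, and log2 was taken. limma 3.58.1 in R 4.3.3 was fitted to all expressed miRNAs over 18 groups, and to age classes within each sex, without a block. Calls needed a Benjamini-Hochberg adjusted p under 0.05 and 1.5-fold. The fit was tested on simulated data.

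The members and lists were chosen with earlier results of these data known, and no test result of a member is given. Named miRNAs were the members, their other strands and same-seed miRNAs, the 4 miRNAs most like each member over 16 group means, and up to 4 of a list of methyltransferase-related miRNAs with the largest called differences. A second list is not reported here. Groups came from the titles, and no 2 arrays held identical values. Because mean signals were absent, normexp was run on median spot signals, with an offset of 50, quantile normalization and the mean log2 over all spots of a miRNA. Other alternatives were scaling, scan, slide and replicate blocks, single probes, single arrays left out and the methods' t-test. Sequences came from RefSeq tables on GRCr8, and coordinates on the array's own build were not used. Python 3.11.15 with numpy, pandas, scipy and matplotlib was used for the rest.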

Additional observations from a re-analysis of the deposited data

Results flagged for a closer look

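In 6 of 54 groups of 4 or 5 arrays (the 18 groups of each member and of their ratio) an extreme array lay so far from the nearest other that the gap, over the whole range of the group, passed Dixon's 95% limit. Chance marks about 1 in 20 groups. The values are on the log2 scale. Male 6 of 78 weeks had the highest miR-152 of its group, 0.91, and the highest log2 ratio, 0.75. Male 3 of 2 weeks had the lowest miR-152, -0.40. For miR-148b-3p, male 6 of 15 weeks was lowest at 0.0503, female 6 of 21 weeks lowest at 0.55, and female 1 of 2 weeks highest at -0.0918. What sets these arrays apart was not tested.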

How the results depend on the processing

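Of 325 values of the members under other settings (single arrays left out apart), 280 moved by less than 1 SD between replicates. These include the deposited table, which equals the main values, and the raw minimum before scaling, which changes only undetected signals. Neither setting could move a member, as both members were detected on every array. All values here are female minus male log2 differences unless stated. When arrays were scaled by the 75th percentile of the 103 always-detected miRNAs, or to an equal mean log2 of them, miR-152 at 2 weeks was -0.20 and -0.16 and miR-148b-3p -0.19 and -0.15, and the change of miR-148b-3p from young to adult males was -0.23 and -0.0457. The former also gave 0.55 for miR-148b-3p at 15 weeks and 0.0402 at 78 weeks. With the percentile over all 677 miRNAs, which fell on undetected signals on 36 arrays, miR-152 was -1.02, 0.27, 0.70, 0.61, 0.38 and 1.05 at 8 and 15, 21 and 52, then 78 and 104 weeks, miR-148b-3p -0.94, -0.39, 0.15, -0.48, -0.21 and 0.59 and miR-29b -0.65 at 8 weeks. Normexp, whose offset of 50 added to every spot narrows log2 differences of dim miRNAs by construction, and which weighs the dim probe of miR-152 like the bright one, gave smaller values: 0.11, 0.37, 0.34, 0.54, 0.29 and 0.19 for miR-152 at these 6 ages, 0.23, 0.23 and 0.25 for miR-148b-3p at 8, 21 and 52 weeks, and 0.14, 0.11, 0.30, 0.16 and 0.13 for the ratio at 15, 21, 52, 78 and 104 weeks. For the other settings the cause was not tested. Averaged within scans, miR-152 at 78 weeks was 1.14, miR-148b-3p at 52 weeks 0.21, and the ratio -0.25 at 2 weeks and 0.87 at 78 weeks. Leaving out 1 array at a time, miR-152 at 78 weeks ranged from 0.75 to 1.10 and the ratio from 0.50 to 0.89, the upper ends without male 6.

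Same-numbered arrays of different groups had a mean correlation of deviations of 0.05, against -0.01 for other pairs, and 17 of 33 same-age pairs exceeded 0.1, which did not support reading the numbers as pairs. With a replicate block, miR-152 was 0.99 at 15 weeks and 1.63 at 52 weeks and miR-148b-3p 0.36 and 0.49, and 5 miRNAs, not 9, fell from adult to old females. With scan as a block or slide as a random block no value of a member or of the ratio moved by 1 SD.

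Counts of called miRNAs moved as follows. Higher in females at 1 or more ages were 62, with 20 under the percentile over all miRNAs and 4 under normexp. Higher in males were 59, with 130, 11, and 16 among miRNAs detected on at least 50% of arrays. Higher in females at 4 or more ages were 4, with 2 under the percentile over all miRNAs, quantile normalization, the raw minimum before scaling or the methods' t-test, and 1 under normexp. Higher in adult than young females were 72, with 25 (percentile over the 103), 121 (over all), 30 (equal means), 11 (normexp) and 156 (raw minimum), and in males 94, with 23, 29, 15 and 169 in that order without the second. From adult to old females 5 rose (1 under normexp) and 9 fell (3 under the percentile over all, 1 under normexp, 5 with the filter), and in males 12 rose (4 and 3) and 4 fell (2 and 0). Of 154 values of called list miRNAs under other settings, 28 kept their direction but were no longer called, most often miR-29b at 2 weeks. The intensity of miR-152 rests on 1 bright probe.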
